A study of Mus musculus with 2 samples.

Results

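The genes described here encode the proteins of the cytosolic ribosome, in splenic CD4 T cells of C57BL/6 mice cultured under 2 conditions. Members were the probe sets that the platform annotation assigned to exactly 1 gene with an Rpl or Rps symbol followed by a digit, or to Rplp0, Rplp1, Rplp2 or Rpsa. S6 kinase genes (Rps6k) and pseudogenes were left out, and the brightest probe set was taken per gene. This gave 50 genes out of 18193 named genes, with 106 probe sets in all. Among them, Rps19bp1 encodes a binding partner of RPS19 and not a ribosomal protein, and 26 of the others belong to the large and 23 to the small subunit. The RefSeq gene table holds 89 protein-coding genes that meet the symbol rule. Of these, 49 are among the 50 genes, 31 had only probe sets that are also assigned to other genes, and 9 were not analysed here.

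The labels give no genotype beyond the strain, and they state a purity above 98% after magnetic sorting. Cells in both cultures received antibodies against the T cell receptor and CD28 for 2 days, followed by 3 further days. CD103+ Th1 cultures contained 3 ng/ml IL-4, 10 ng/ml IFN-γ and 3 ng/ml TGF-β. Th1 cultures contained 1 ng/ml IL-12 and 1 µg/ml of an antibody that blocks IL-4. Each culture was hybridised to 1 Affymetrix array, so the values below are descriptions of these arrays, without replicates and without a test. The number of mice behind each culture is not stated.

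The cytosolic ribosome is made of a small subunit, which decodes the mRNA, and a large subunit, which joins amino acids and releases the growing chain through an exit tunnel. Most ribosomal proteins are present once per ribosome, and their genes are expressed together at very high levels. Their mRNAs begin with a tract of pyrimidines, the 5′ terminal oligopyrimidine (TOP) motif, through which the kinase complex mTORC1 and the RNA-binding protein LARP1 control translation. T cells make many new ribosomes when they are activated, and proteins of the 5S ribonucleoprotein particle such as RPL11 bind MDM2, the inhibitor of p53, when assembly is disturbed.

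Sequences around the annotated gene starts show the pyrimidine runs that many of these genes hold. Windows of 30 bases, 15 before the start and the rest from the start on, are printed 5′ to 3′ on the sense strand, with the longest run of C or T in capitals. The first windows are among those with the longest runs, Rps6 is a substrate of the S6 kinases, and Rps27 and Rps27l are a paralog pair described further on.
Rpl7a: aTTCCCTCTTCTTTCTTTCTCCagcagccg
Rpl35: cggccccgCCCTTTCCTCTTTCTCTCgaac
Rps10: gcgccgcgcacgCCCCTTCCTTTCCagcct
Rps18: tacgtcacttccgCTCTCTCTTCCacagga
Rps6: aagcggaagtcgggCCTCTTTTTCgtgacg
Rps27: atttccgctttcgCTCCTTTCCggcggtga
Rps27l: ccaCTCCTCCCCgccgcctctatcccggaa
The sequences are from RefSeq, build GRCm38.p6. They lie at chr2:26910792-26910821 on the plus strand (Rpl7a), chr2:39005117-39005146 on the minus strand (Rpl35), chr17:27635230-27635259 on the minus strand (Rps10) and chr17:33955651-33955680 on the minus strand (Rps18). The Rps6 window is chr4:86857353-86857382 on the minus strand, that of Rps27 chr3:90213634-90213663 on the minus strand, and that of Rps27l chr9:66946071-66946100 on the plus strand. The run printed for Rps27l lies wholly before the annotated start, so an mRNA that begins there does not hold it. Rps27l has a second annotated start, whose window held no run above 4 bases.

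Of 43 core members, meaning those without paralogs and Rps19bp1, 38 had a promoter in the table, and 17 of these (44.7%) held a run of at least 8 pyrimidines in the window. A run was counted wherever it lay in the window, so it need not be a TOP motif at the start of the mRNA. Those of Rpl4 and Rpl19, for example, end before the annotated start. Among 26981 genes other than the members the share was 13.9%. The motif CCGGAAG, bound by ETS factors such as GABP, was found on either strand within 250 bases before to 50 bases after the start in 19 of the 38 genes, against 9.87% of the other genes. Its reverse complement holds pyrimidines and can overlap a pyrimidine run. The YY1 motif AAGATGGC was in 3 of the 38 (7.89%, against 3.18%), the E-box CACGTG in 4 (10.5%, against 8.09%) and TATAAA in 5 (13.2%, against 15.7%), each searched on both strands. Over all 32851 promoters in the table, CCGGAAG was in 8.86%. These matches describe the letters near annotated starts, which need not be the starts used in these cells.

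Signals are linear intensities in arbitrary units. The level of one probe set cannot be set against that of another. A floor was set at the median signal of both arrays, 78.5, and a value under it was raised to it. Of the 50 genes, 46 were above the floor on both arrays and Rps4l in CD103+ Th1 alone, which makes 47 measured genes. The other 3, Rpl3l, Rpl39l and Rps16, were under the floor on both arrays and have no ratio. Rpl3l is known as a form of skeletal and cardiac muscle and Rpl39l as one of testis, while the only Rps16 probe set with 1 gene lay at 22.4 in CD103+ Th1 and 4.98 in Th1. The medians over all 45037 probe sets were 78 in CD103+ Th1 and 78.8 in Th1. T cell markers were above the floor on both arrays in 10 of 10 genes, and their signals summed to 97112 in CD103+ Th1 and to 83791 in Th1. Cd4 itself had 1081 in CD103+ Th1 and 973 in Th1. B cell markers were above it in 2 of 6 (CD103+ Th1) and 1 of 6 (Th1), myeloid markers in 2 and 3 of 8, erythroid markers in 1 of 4 on each array and NK cell markers in 0 of 2. Summed signals were 431 in CD103+ Th1 and 327 in Th1 for the B cell list, 360 and 665 for the myeloid, 186 and 178 for the erythroid and 41.2 and 34.5 for the NK cell list. The B cell genes Cd79a, Ms4a1, Pax5 and Ebf1, the myeloid genes Lyz2, Itgam and Cd14 and the haemoglobin gene Hba-a1 were under the floor on both arrays. Of the B cell genes above it, Cd79b had 244 in CD103+ Th1 and 75.8 (under the floor) in Th1, and Blk had 96.8 and 115. Of the myeloid genes, Cd68 had 104 in CD103+ Th1 and 233 in Th1, Csf1r 118 and 187, and Adgre1 57.0 (under the floor) and 79.1. The erythroid gene Epor had 129 in CD103+ Th1 and 147 in Th1. Both CD8 T cell markers, Cd8a and Cd8b1, were above the floor, with a sum of 3647 in CD103+ Th1 and 1163 in Th1. The part of these markers in the results below was not tested, and in a bulk culture fewer cells of a type and less RNA per cell cannot be told apart.

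On their brightest probe sets, most ribosomal protein genes had nearly the same signal in both cultures. The median log2 ratio of the members, CD103+ Th1 over Th1, was -0.060 (47 measured genes, Rps19bp1 among them), against -0.027 over all 11194 measured genes. At like signals the members were not lower than other genes. At a mean log2 signal of 13 or more the median was -0.046 for 36 members and -0.11 for 380 other genes. At 14 or more it was -0.041 for 34 members and -0.043 for 79 other genes. The middle 50% of the members' ratios spanned 0.10 on the log2 scale, against 0.65 over all measured genes. Of the 47, with Rps4l at its bound, 40 differed by less than 1.2-fold (85.1%), against 42.3% of all measured genes. That share depends on the probe sets. With those whose names carry no suffix for shared transcripts, which measured 23 members, 14 differed by less than 1.2-fold (60.9%, against 41.1% of all genes so measured), and 9 were at least 1.2-fold lower (39.1%, against 30.1%). In the main analysis none of the 46 genes with both signals above the floor was at least 1.2-fold higher in CD103+ Th1, a class that held 27.2% of all measured genes, and 7 were at least 1.2-fold lower, against 30.5%. For Rps4l the ratio is a lower bound under that threshold, so its class is not known. With the floor at the 25th percentile its log2 ratio was 0.76. Rpl37 passed 1.2-fold after quantile normalization and after lowess centring, at 0.29 and 0.28. At a bound of 1.1-fold 2 were higher (36.2% of all measured genes) and 11 lower (40.1%), and at 1.5-fold 0 were higher (12.5%) and 3 lower (13.5%). At 2-fold 0 were higher (5.08% of all measured genes) and 1, Rps25, was lower (4.90%). Small values below 0 were common, with 38 of 47 genes below 0 against 52.6% of all. The sign of the median depends on the scaling of the arrays. It was 0.036 after lowess centring by signal level, with 17 of 47 genes below 0, and -0.010 after quantile normalization, with 26.

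**Figure D1:**
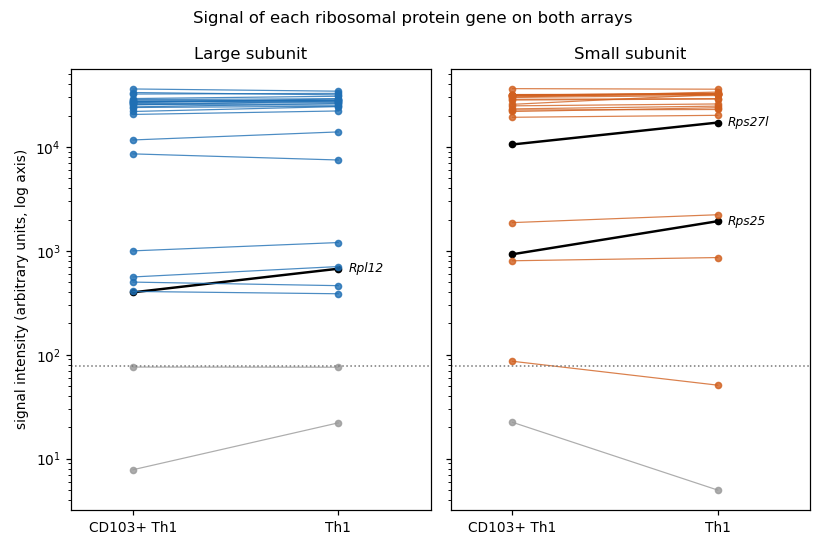
Signal intensity (log axis, arbitrary units) of 49 members (all but Rps19bp1) on the CD103+ Th1 and the Th1 array, with 1 line per gene, the large subunit on the left and the small subunit on the right. Grey lines are genes under the floor (dotted, 78.5) on both arrays, and black lines mark Rpl12, Rps27l and Rps25, the 3 genes at least 1.5-fold lower in CD103+ Th1, while most other lines are nearly flat near the top of the scale.

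Most of these genes are among the brightest on the array. A mean log2 signal of at least 14, a signal of 16384, was reached by 34 of the 47, all of them core members. Their signals ranged from 19280 to 36373 in CD103+ Th1 and from 20140 to 35928 in Th1, and the highest signals of any probe set were 36373 and 36496. The log2 ratios of the 34 ran from -0.32 to 0.075, with an SD over genes of 0.072. At the same bound 79 other genes ran from -0.89 to 1.15, with an SD of 0.29. Of the 34, 33 lay within 1.2-fold (97.1%), against 60 of the 79 others (75.9%). The members were also brighter within this class, with medians of 27608 in CD103+ Th1 and 28935 in Th1, against 19420 and 21278 for the others. The part that this closeness to the highest signals has in the small ratios was not tested. At a lower bound, a mean log2 signal of 13, there were 36 members among 416 genes. Of these 36, 0 were at least 1.1-fold higher (18.3% of the 416) and 5 lower (44.2%), and at 1.2-fold 0 were higher (11.1%) and 2 lower (26.0%). At 1.5-fold 0 were higher (4.33%) and 1 lower (6.73%), and at 2-fold 0 were higher (1.44%) and 0 lower (1.44%). A ratio below 0 was found in 31 of the 36, against 67.1% of the 416.

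**Figure D2:**
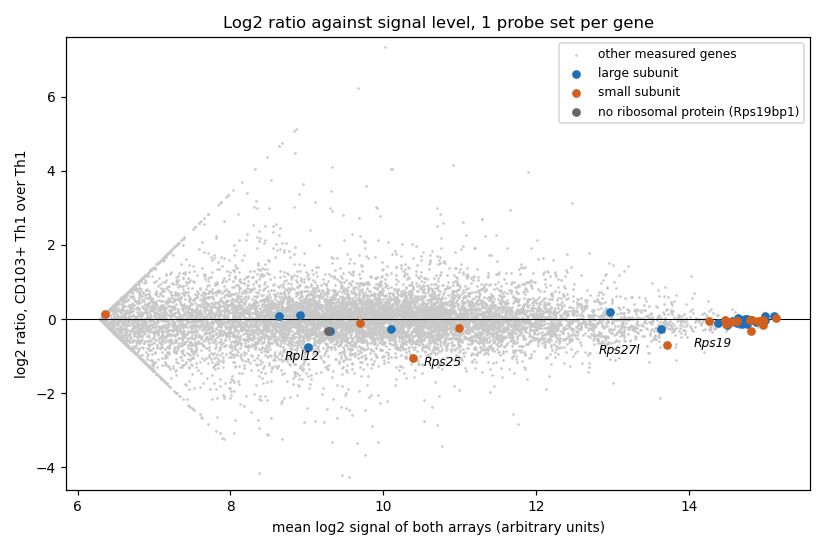
Log2 ratio of signals, CD103+ Th1 over Th1, against the mean log2 signal of both arrays (arbitrary units) for all 11194 measured genes, 1 probe set per gene, with values under the floor set to it. Coloured points are the 47 measured members, Rps19bp1 (dark grey) among them, of which 34 lie at a mean log2 signal of 14 or more and within a range of -0.32 to 0.075.

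The probe sets of a gene gave close to the same ratio where they were bright. For 18 genes with at least 2 probe sets at a mean log2 signal of 13 or more, the gap between the lowest and the highest log2 ratio had a median of 0.068 and a maximum of 0.13. The SD within genes was 0.038. Of 70 such probe sets, 4 reached 1.2-fold in either direction, 3 of Rps27l and 1 of Rps19. Dim probe sets of the members spread more, with 14 of 26 at 1.2-fold or more and a range of -1.06 to 0.30. Rps24, for example, had 4 bright probe sets between -0.021 and 0.039, and dim ones at -0.69 and 0.13. Of the 106 probe sets of the members, 71 carry a name suffix for shared transcripts or sequences, the 4 bright ones of Rps24 among them. Such probe sets may measure the same targets on the same arrays, so their closeness is no replication.

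The large and the small subunit are given side by side, and their difference was not tested. The 24 measured genes of the large subunit had a median log2 ratio of -0.035, from -0.76 to 0.20, and 17 were below 0. The 22 of the small subunit had a median of -0.062, from -1.06 to 0.14, and 20 were below 0. These shares are 70.8% for the large and 90.9% for the small subunit. A ratio below 0 was found in 52.6% of all measured genes and in 67.1% of those at a mean log2 signal of 13 or more. Both medians were above 0 after lowess centring, at 0.051 for the large and 0.035 for the small subunit, and after quantile normalization they were 0.0016 and -0.015.

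Rps27l was the bright member that differed most. It encodes a paralog of RPS27 that can take its place in the small subunit, and it is known as a gene induced by p53 whose product binds MDM2. Its brightest probe set read 10552 in CD103+ Th1 against 17153 in Th1, a log2 ratio of -0.70 or 1.63-fold lower in CD103+ Th1. The other 2 probe sets gave 9034 in CD103+ Th1 against 15374 in Th1, and 9476 against 16401, with log2 ratios of -0.77 and -0.79. All 3 probe sets were thus lower in CD103+ Th1 by a similar amount, and the ratio stayed between -0.79 and -0.61 under the 9 alternatives that gave a value. All 3 carry a name suffix for shared transcripts or sequences, so their closeness is no replication. No probe set without such a suffix measured Rps27l. Rps27 itself was measured on a dim probe set of 802 in CD103+ Th1 and 861 in Th1, a log2 ratio of -0.10.

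Other genes of the p53 response differed in the same direction as Rps27l in many cases, with exceptions. Zmat3, which encodes an RNA-binding p53 target, was 3.02-fold lower, at 726 in CD103+ Th1 against 2195 in Th1. Perp, an effector of p53-dependent death, was 2.72-fold lower (253 against 688), the cell cycle inhibitor gene Cdkn1a 2.69-fold lower (3999 against 10756) and Phlda3, an inhibitor of AKT, 2.48-fold lower (580 against 1439). Mdm2 had 1353 in CD103+ Th1 and 1852 in Th1, a 1.37-fold difference. In the other direction, Trp53inp1, a p53 target linked to autophagy, had 16387 in CD103+ Th1 and 8357 in Th1, 1.96-fold higher, and Sesn1, which encodes an inhibitor of mTORC1, was 1.94-fold higher. The list without Rps27l had 15 measured genes. A 1.2-fold bound was passed by 8 of them downward (53.3%, against 30.5% of all measured genes) and by 3 upward (20.0%, against 27.2%). A 2-fold bound was passed by 5 downward (33.3%, against 4.90%) and by 0 upward (5.08% of all measured genes). The median log2 ratio was -0.45. Several genes of this list also respond to signals other than p53. The list was chosen with earlier results of these data known, so its shares are descriptions only. The part of p53 in the ratio of Rps27l or of the other genes was not tested.

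The other paralogs differed less. Rpl22l1 encodes a paralog of RPL22, a protein that αβ T cells need for their development and that represses Rpl22l1 in mice. Rpl22l1 had 11665 in CD103+ Th1 and 13938 in Th1 (log2 ratio -0.26). Rpl22 had 27220 in CD103+ Th1 and 28177 in Th1 (log2 ratio -0.050), and its 3 probe sets were all below 0, from -0.29 to -0.050. Rpl7l1, a relative of RPL7, had 998 in CD103+ Th1 and 1201 in Th1, but its 3 probe sets pointed both ways, from -0.27 to 0.30. Rps4l, a copy of the X-linked Rps4x, was close to the floor, with 86.5 in CD103+ Th1 and 50.9 in Th1, at least 1.1-fold higher. Rpl39l lay just under the floor, at 76.0 in CD103+ Th1 and 75.8 in Th1.

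**Figure D3:**
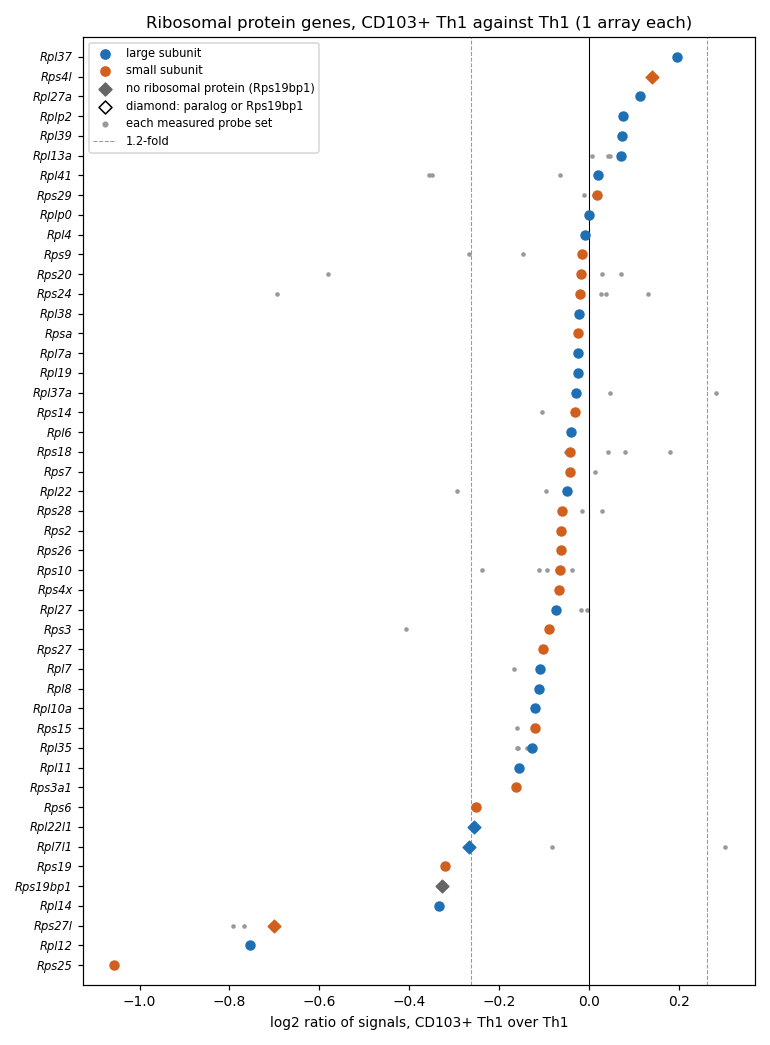
Log2 ratio of signals, CD103+ Th1 over Th1, for each of the 47 measured genes, from the highest at the top to the lowest at the bottom, with large points for the brightest probe set, small grey points for the other measured probe sets and dashed lines at 1.2-fold. The 7 genes from Rpl7l1 down to Rps25 lie beyond the left dashed line and none beyond the right one, where Rps4l is drawn at its lower bound.

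Among core genes with bright probe sets, Rps19 differed most. RPS19 is needed to mature the rRNA of the small subunit and is the protein most often mutated in human Diamond-Blackfan anaemia. Its probe set was 1.25-fold lower, at 25693 in CD103+ Th1 against 32060 in Th1, a log2 ratio of -0.32. After lowess centring the log2 ratio was -0.22, which is less than 1.2-fold. The next genes were Rps3a1, with 30155 in CD103+ Th1 and 33744 in Th1 (log2 ratio -0.16), and Rpl11, with 21924 and 24425 (log2 ratio -0.16). Each of these has 1 probe set of its own, so that no second value bears on it. Of 19 genes linked to that anaemia 11 are measured members. Of these 10 differed by less than 1.2-fold (90.9%), all but Rps19, around a median of -0.065. That share was near the 90.5% of all measured core members, against 42.3% of all measured genes.

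The stalk of the large subunit recruits elongation factors, and Rplp0 and Rplp2 are its measured members, while Rpl12 at its base was 1.69-fold lower on a dim probe set. Rplp0 had 27212 in CD103+ Th1 and 27191 in Th1 (log2 ratio 0.0011), and Rplp2 had 33378 and 31681 (log2 ratio 0.075). Rpl13a, whose product takes part in the interferon-γ-induced silencing of inflammatory mRNAs in human monocytes, had 36115 in CD103+ Th1 and 34376 in Th1. All 4 Rpl13a probe sets were above 0, from 0.0062 to 0.071. The highest ratio among genes above the floor on both arrays was that of Rpl37, a protein of the large subunit that binds rRNA, with 8568 in CD103+ Th1 and 7482 in Th1, 1.15-fold higher on 1 probe set. Rpl41 had 25609 and 25233 on the brightest of 4 probe sets, whose log2 ratios ran from -0.36 to 0.021.

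Values of other members with known roles follow. Rps3, which also acts in DNA repair and with NF-κB, had 23227 in CD103+ Th1 and 24695 in Th1 (log2 ratio -0.088). Rpsa, also known as the laminin receptor, had 31609 and 32136 (log2 ratio -0.024). Rpl38, needed in mouse embryos to translate Hox mRNAs, had 32263 and 32764 (log2 ratio -0.022). Rpl35, at the rim of the exit tunnel, had 25368 and 27709, and all 5 of its measured probe sets were below 0, from -0.16 to -0.13. Rps6, the S6 kinase substrate, was measured on a dimmer probe set with 1869 in CD103+ Th1 and 2225 in Th1 (log2 ratio -0.25). Fau, a ribosomal protein gene whose symbol the rule does not take, had 26252 in CD103+ Th1 and 26339 in Th1 (log2 ratio -0.0048).

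Of the 3 lowest ratios, those of Rps25 and Rpl12 came from dim probe sets and that of Rps27l from a bright one. Rps25, which encodes a small subunit protein used in internal initiation, was 2.08-fold lower, with 926 in CD103+ Th1 and 1928 in Th1. Rpl12, a protein at the base of the stalk, had 398 and 672, 1.69-fold lower, and Rpl14 had 560 and 705, 1.26-fold lower. Each rests on the 1 probe set assigned to that gene alone. In genes with both kinds, such as Rps24 above, a dim probe set could lie far from the bright ones. The ratios of these dim probe sets therefore need not be those of the whole mRNA. Rps19bp1, the gene that encodes no ribosomal protein, was 1.25-fold lower, with 554 in CD103+ Th1 and 695 in Th1. The genes Rpl39 and Rpl27a, also measured on dim probe sets, were slightly above 0, Rpl39 with 406 in CD103+ Th1 and 386 in Th1 and Rpl27a with 500 and 462. Among the 11 measured members below a mean log2 signal of 13, 5 were at least 1.2-fold lower (45.5%), against 30.7% of the 10767 other genes at those signals. Above it 2 of the 36 were, Rps27l and Rps19.

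Probe sets assigned to several genes, at least 1 of which meets the symbol rule, gave similar ratios where they were bright. There were 110 of them, and 79 had a mean log2 signal of 13 or more. Their log2 ratios ran from -0.23 to 0.087 with a median of -0.042, and 0 of the 79 reached 1.2-fold. The 27 dimmer measured ones ran from -1.36 to 2.10, and 14 reached 1.2-fold. These probe sets were not used for single genes.

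Other genes of ribosome production and translation had lower medians than the ribosomal protein genes. The 23 measured genes of other TOP mRNAs, mostly elongation and initiation factors, had a median log2 ratio of -0.22, with 9 at least 1.2-fold lower (39.1%) and 0 higher, against 30.5% lower and 27.2% higher among all measured genes. The elongation factor gene Eef1a1 had 29422 in CD103+ Th1 and 30537 in Th1 (log2 ratio -0.054), while Pabpc4, for a poly(A)-binding protein, was 1.62-fold lower and the importin gene Ipo5 1.52-fold lower. The 76 mitochondrial ribosomal protein genes had a median of -0.35, with 44 at least 1.2-fold lower (57.9%) and 1 higher. The 60 measured genes of nucleolar ribosome assembly had a median of -0.52, with 46 at least 1.2-fold lower (76.7%) and 1 higher. In that list Nop16, a nucleolar protein of large subunit assembly, was 2.33-fold lower (603 against 1403) and Polr1b, which encodes a core subunit of RNA polymerase I, 2.16-fold lower (229 against 494). Of 12 genes for chaperones and assembly partners of ribosomal proteins, 11 were at least 1.2-fold lower (91.7%) and Pdcd2 was higher, and the median was -0.42. Grwd1, a histone chaperone whose yeast relative binds Rpl3, had 278 in CD103+ Th1 and 483 in Th1, and Heatr3, whose human product helps import RPL5, had 307 and 498. Grwd1 and Rrs1 of that list are also in the nucleolar list, and Nap1l1 in the TOP list. The differences between these medians were not tested, and these lists lie at lower signals. Their size depends on the choice of probe set. With the mean of probe sets the median was -0.068 for the members and -0.098 for other TOP mRNA genes. With the second brightest probe set it was -0.068 for the members and -0.27 for the nucleolar genes. The median signal of the nucleolar genes was 965 in CD103+ Th1 and 1286 in Th1.

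**Figure D4:**
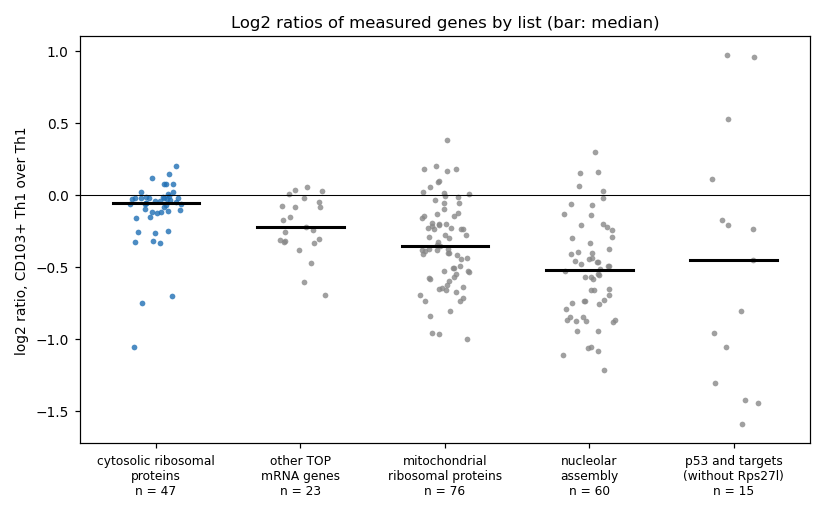
Log2 ratio of signals, CD103+ Th1 over Th1, of the measured genes of 5 lists, with 1 point per gene, horizontal jitter and a bar at the median. The medians are -0.060 for the 47 measured members (Rps19bp1 among them), -0.22 for 23 other TOP mRNA genes and -0.35 for 76 mitochondrial ribosomal protein genes. They are -0.52 for 60 nucleolar assembly genes and -0.45 for 15 p53 genes other than Rps27l.

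Genes of mTORC1 signalling and of TOP mRNA control passed the 1.2-fold bound about as often as all measured genes. The list had 16 measured genes and a median of -0.11, and 5 passed in each direction (31.2%, against 30.5% lower and 27.2% higher among all). Myc, a transcription factor that drives ribosome production, was 1.63-fold lower, with 2130 in CD103+ Th1 and 3479 in Th1, and its partner Max had 371 and 99.1, 3.74-fold higher with a Th1 signal close to the floor. Eif4ebp1, a translation inhibitor that mTORC1 inactivates, was 2.44-fold lower, and the log2 ratios of its 3 probe sets ran from -1.29 to -0.29. Eif4e, the cap-binding protein gene, was 1.53-fold lower.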

How the data were processed

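Per the submitters' processing notes, GCOS of Affymetrix made the values, with version, scaling target and filters not given in the sources used here. Values were deposited as linear signal intensity, 1 value for every probe set on either array. No further scaling was applied. Of 45037 probe sets, 34945 had 1 gene symbol in the platform annotation, 932 several and 9160 none; 34741 of the first matched the GRCm38.p6 gene table, which updated symbols. Where a gene had several, the brightest by mean log2 signal, after raising values to the floor, stood for it. Called means past a fold of 1.2 or 2. With 1 array per group the number of arrays limits the precision, and no test was made. Calculations used Python 3.11.15, pandas 2.3.3 and statsmodels 0.14.6 and were tested on simulated data. Members and lists were chosen with earlier results of these data known. Named genes were members at least 1.5-fold apart, the 6 highest and 6 lowest core members, members under the floor, all paralogs, stalk, 5S and role genes, genes outside the symbol rule, members with probe sets over 1 log2 unit apart (none), up to 4 genes with the largest ratio per other list, and the strongest markers. Rps10, Rps18, Rps24, Rpl7a, Mdm2, Trp53inp1, Sesn1, Eef1a1, Rrs1, Nap1l1, Pdcd2 and the S6 kinase genes were named after their values were seen, as were markers beyond the strongest. The alternatives concerned scaling, the floor and the choice of probe set. The signal classes at log2 values of 13 and 14 were also chosen after seeing the data.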

Additional observations from a re-analysis of the deposited data

How the results depend on the processing

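Each count and median was recomputed under 10 processing alternatives, without paralogs and Rps19bp1, and, chosen after seeing the data, over the 36 bright members alone. Medians that shifted by over 0.038, a descriptive limit taken from the SD between bright probe sets of 1 gene, or that changed sign are given. After quantile normalization the median log2 ratio was -0.010 for all members, 0.0016 for the large and -0.015 for the small subunit, -0.14 for other TOP mRNA genes and -0.57 for nucleolar genes, and 1 member was at least 1.2-fold higher. After lowess centring it was 0.036 for all members, 0.051 for the large and 0.035 for the small subunit and -0.14 for other TOP mRNA genes, with 17 members below 0 and 1 at least 1.2-fold higher. With a floor at the 25th percentile 1 member was at least 1.2-fold higher, and with a pseudocount 2. With a floor at the 75th percentile the nucleolar median was -0.47. The mean of probe sets gave -0.098 for other TOP mRNA genes, -0.25 for mitochondrial ribosomal protein genes and -0.45 for nucleolar genes. The second brightest probe set, available for 20 members, gave -0.17, -0.20 and -0.27 for the same lists. With it 2 members were at least 1.2-fold lower, 0 at least 2-fold lower and 14 below 0. The median of all genes so measured was 0.010, against -0.027 in the main analysis. Ebna1bp2, a nucleolar gene whose brightest probe set had a log2 ratio of -1.08, was at 0.18. Probe sets without suffix letters, available for 23 members, gave medians of -0.16 for all, -0.084 for the large and -0.20 for the small subunit, with 17 below 0, 9 at least 1.2-fold lower and 14 within 1.2-fold (60.9%, against 85.1%). Without paralogs and Rps19bp1 4 members were at least 1.2-fold lower. Among bright members 2 passed 1.2-fold downward and 0 passed 2-fold. Counts for 20, 23, 36 and 42 genes are out of fewer genes, and the cause of the other shifts was not tested. Of 413 values of 46 named genes under the alternatives, 14 had the opposite sign to the main value. No paired analysis was possible because each group has 1 array. Signals near the floor limit dim genes.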

Other observations

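The genes with Rps6k symbols, which the symbol rule leaves out, are named after S6 kinases, and only some of their products are known to phosphorylate RPS6. No value is given for Rps6kb1, which is not among the genes with a probe set assigned to 1 gene alone. Rps6ka3, which encodes RSK2, had a signal of 4103 in CD103+ Th1 and 2775 in Th1, a log2 ratio of 0.56. Rps6kb2, which encodes S6K2, had 547 and 435 (log2 ratio 0.33), and Rps6ka5, which encodes MSK1, had 805 and 792 (log2 ratio 0.024). Rps6ka6, Rps6kc1 and Rps6kl1 were under the floor on both arrays.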
